A study of Mus musculus with 6 samples.

Results

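The messenger RNAs of the cytosolic ribosome were followed in microglia purified from the cerebellum of mice, in 6 RNA-seq libraries. Cytosolic ribosomal protein genes were taken as all rows of the deposited count table with a symbol of the form Rpl or Rps and a number, with or without a final a, x or l, together with Rpsa, Rplp0, Rplp1 and Rplp2. Kinase genes named Rps6k and pseudogene symbols with -ps were left out, and at least 10 counts over the 6 libraries were required. The rule found 81 genes of 23491, of which 50 belong to the large and 31 to the small subunit. Every matching symbol passed the count minimum, and the genes nearest to it were Rpl32l with 15 counts in all and Rpl3l with 21. Of the 81 genes, 79 passed the filter on low counts and were tested. Rpl32l and Rpl3l did not.

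All mice carried the genotype Fmr1 knock out, a model of fragile X syndrome, and there was no wild-type group. The saline group (3 libraries) is called sham in the sample titles, and the other group (3 libraries) received poly(I:C), a synthetic double-stranded RNA that mimics viral infection, by intraperitoneal injection. The sources used here give no dose, time after injection, sex or age. Cells were freed of myelin on Percoll and captured on magnetic beads against CD11b, which other myeloid cells carry as well as microglia. The labels do not say whether the libraries of a group came from separate animals, so p-values measure only the spread between these libraries, which may be technical.

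A ribosome has a small subunit, which reads the codons of the messenger RNA, and a large subunit, which joins the amino acids. Each subunit holds ribosomal RNA and 1 copy of most of its proteins, so cells make these proteins in matched amounts. The messenger RNAs of most of them begin with a stretch of pyrimidines (C or T), the terminal oligopyrimidine or TOP element, through which mTOR signalling and the RNA-binding protein LARP1 set how strongly they are translated. Control of this kind acts on translation and need not be visible in counts of RNA.

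The start regions of 6 of the genes described are shown because the TOP element is the sequence feature for which this gene family is known. They come from RefSeq on GRCm38.p6, run 5′ to 3′ on the gene's strand from 45 bases before the annotated start to 15 after it, and have the longest run of C or T in capitals. In Rps27l a second run of the same length follows the marked one, and 1 of its 2 listed starts is shown. All 6 genes lie on the plus strand. In Rplp0, Rpl4, Rpl13 and Rps27l the marked run ends before the annotated start, so by that annotation it is not in the messenger RNA. A marked run is therefore not shown to be a TOP element.
Rplp0, chr5:115559422-115559481: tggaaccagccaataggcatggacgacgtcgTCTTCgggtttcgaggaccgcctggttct
Rpl4, chr9:64173342-64173401: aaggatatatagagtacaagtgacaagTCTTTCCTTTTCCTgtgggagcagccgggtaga
Rpl13, chr8:123102305-123102364: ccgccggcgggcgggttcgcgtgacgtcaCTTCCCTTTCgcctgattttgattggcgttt
Rpl18, chr7:45718026-45718085: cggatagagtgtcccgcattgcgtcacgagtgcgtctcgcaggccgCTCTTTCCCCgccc
Rps9, chr7:3703996-3704055: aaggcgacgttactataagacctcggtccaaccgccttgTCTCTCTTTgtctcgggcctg
Rps27l, chr9:66946041-66946100: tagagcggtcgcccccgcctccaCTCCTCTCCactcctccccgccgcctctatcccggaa

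RefSeq start regions were found for 60 of the 81 genes, with 72 annotated starts. An unbroken run of 8 or more C or T lay in that window at 39 of the 72 starts (54.2%), against 24.8% of 32851 starts of all genes in the table. The longest run was 14 bases in Rpl4 and 5 bases in Rplp0. The letters CTTTCC, read on the transcribed strand of the same window and able to overlap such a run, were present at 19.4% of the starts of ribosomal protein genes and at 2.9% of all starts. ACTTCCG, part of the sequence bound by ETS-family factors and searched on both strands from 250 bases before to 50 after the start, was present at 30.6% and 6.42%. CTTTCC stood at 25% of large and 10.7% of small subunit starts, and ACTTCCG at 25% and 39.3%. These are matches of letters at annotated starts and not measured sites. Most of the window for runs and CTTTCC lies before the annotated start, so a match need not lie in the messenger RNA.

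Library totals were between 33710545 and 34899835 counts. Of 23491 symbols, 14727 were tested, and 141 of these (0.957%) differed between poly(I:C) and saline in edgeR's quasi-likelihood test at a Benjamini-Hochberg adjusted p under 0.05. Of the 12 microglial markers listed, 11 had a row, none was at 0 in all libraries, and their summed level was between 29602 and 44016 CPM (counts scaled to library size and composition, per 1e+06). Saline replicate 1 stood apart from the other 5 libraries in markers of other myeloid cells. Its 12 neutrophil markers summed to 20643 CPM, where saline replicates 2 and 3 had 2464 and 2386 CPM and the poly(I:C) libraries 484 to 2246 CPM. Its 5 monocyte markers summed to 1935 CPM against 145 to 353 CPM elsewhere, and its 14 cell cycle genes to 816 CPM against 242 to 329 CPM. No marker of these lists was at 0 in all libraries. Poly(I:C) replicate 1 held the highest sum of the 11 choroid plexus markers, 12577 CPM, against 2699 to 6254 CPM in the other 5 libraries. Markers also differed between the groups. The 5 erythroid (red cell) markers summed to 53 to 444 CPM with saline, highest in saline replicate 2, and 24 to 45 CPM with poly(I:C). All 12 neutrophil and all 5 erythroid markers had log2 differences, poly(I:C) minus saline, below 0. Of the 11 choroid plexus markers 10 were above 0 and 1 below. None of these was called, and their part in the results was not tested.

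Ribosomal protein genes took between 1.28% and 1.70% of the counts of a library. The share was 1.70%, 1.32% and 1.28% in the 3 saline libraries and 1.35%, 1.50% and 1.31% in the 3 poly(I:C) libraries. Saline replicate 1 was the highest of all, poly(I:C) replicate 2 came next, and the groups overlapped. The means were 1.44% ± 0.232 with saline and 1.39% ± 0.101 with poly(I:C) (SD, n = 3 each), so the difference between groups was smaller than the spread within either. In bulk RNA a share of this kind cannot tell fewer cells of a type from less RNA per cell. Without saline replicate 1 the difference of the means turned from −0.0466 to 0.0869 percentage points.

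**Figure D1:**
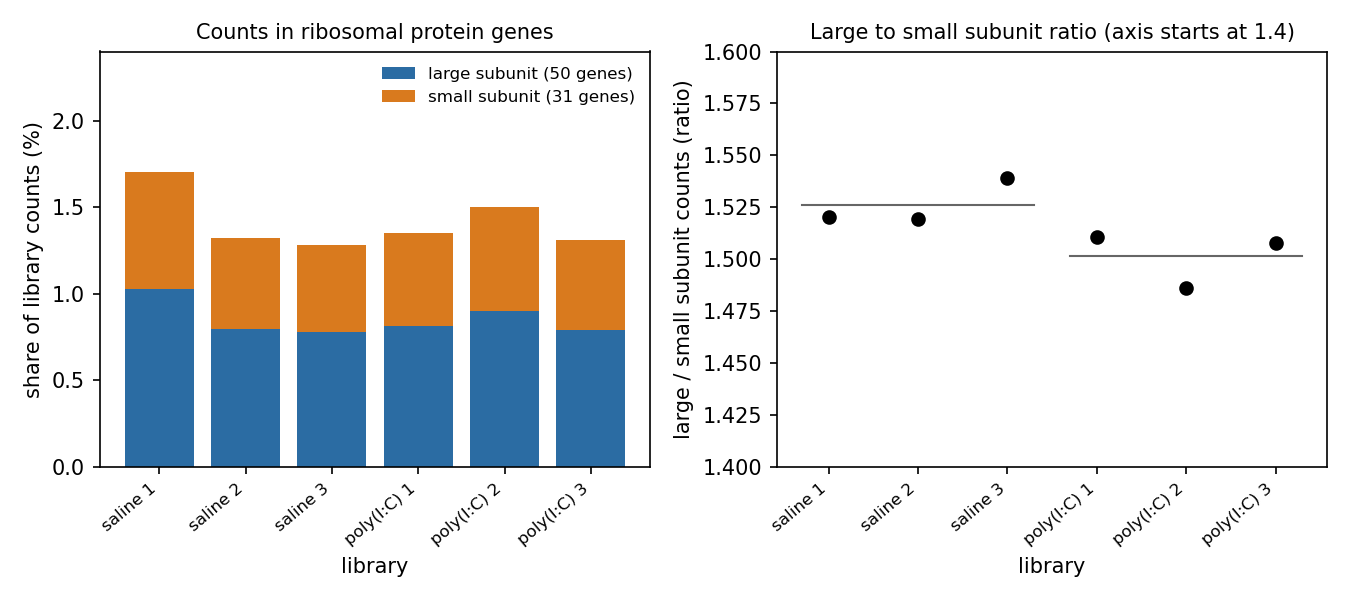
Left, the share of each library's counts (%) in 50 large and 31 small subunit genes, with saline replicate 1 at 1.70% and poly(I:C) replicate 2 at 1.50%. Right, the ratio of summed large to summed small subunit counts for each library (axis from 1.4, lines at the group means), where the 3 poly(I:C) libraries lie below the 3 saline libraries.

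Large and small subunit genes moved together across the libraries. For each tested gene the log2 CPM was taken relative to its own mean over the 6 libraries. The median of this deviation over the 48 large subunit genes was 0.34, −0.10 and −0.10 in saline replicates 1 to 3 and −0.09, 0.12 and −0.12 in poly(I:C) replicates 1 to 3. Over the 31 small subunit genes it was 0.34, −0.08 and −0.14 with saline and −0.05, 0.13 and −0.11 with poly(I:C). Saline replicate 1 held the highest value of 73 of the 79 genes. Of the other 6, Rpl36a, Rpl39, Rpl39l, Rps18 and Rps21 were highest in poly(I:C) replicate 2, and Rps27l in poly(I:C) replicate 1.

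Within the saline group all 79 genes stood higher in saline replicate 1 than the mean of the other saline libraries, by a median of 0.43 on the log2 scale (1.35-fold). Over all 14727 tested genes the same median was −0.01, with 48.4% of genes higher. The smallest difference was 0.05, for Rps18, and the largest 1.15, for Rpl21. The neutrophil, monocyte and cell cycle sums given above moved with this library, and their part in the result was not tested.

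**Figure D2:**
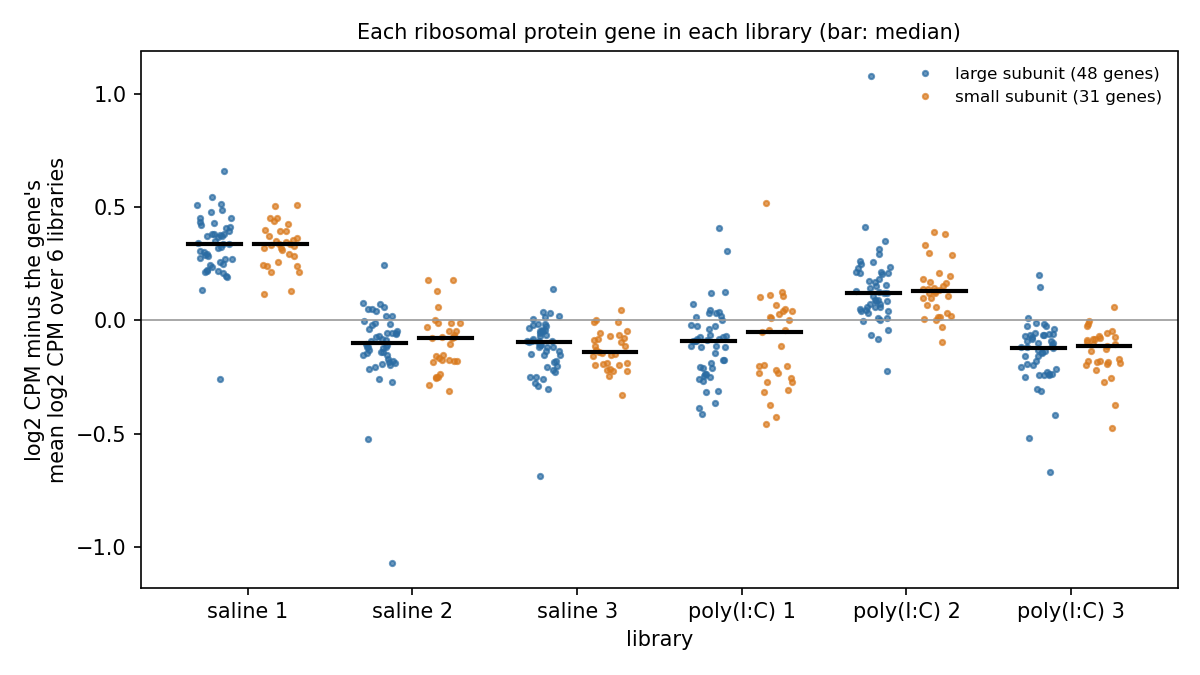
Each point is 1 of 79 tested genes in 1 library, as log2 CPM minus the gene's own mean log2 CPM over the 6 libraries, and black bars are medians for the large and small subunit. Both subunits have medians of 0.34 in saline replicate 1, and the other libraries lie between −0.14 and 0.13.

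The large and small subunit were compared within each library by the ratio of their summed counts, which does not depend on scaling. The ratio was 1.52, 1.52 and 1.54 in the saline libraries and 1.51, 1.49 and 1.51 in the poly(I:C) libraries. Every saline library lay above every poly(I:C) library, and the means were 1.53 ± 0.0112 and 1.50 ± 0.0133 (SD, n = 3 each). The separation is narrow, since the lowest saline value was 1.519 and the highest poly(I:C) value 1.510. Without the 5 most abundant genes the lowest saline value was 1.752 and the highest poly(I:C) value 1.743, and the difference of the means was −0.0504 in place of −0.0248. That difference was −0.0111 when proteins of the subunits that lie outside the symbol rule were added. With medians in place of sums the groups overlapped, at 1.08 to 1.13 with saline and 1.09 to 1.12 with poly(I:C). As the genes were chosen with earlier results known, the ratio was not tested.

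No ribosomal protein gene passed the test between poly(I:C) and saline. By the quasi-likelihood test of edgeR, adjusted over all 14727 genes by Benjamini-Hochberg, 0 of 79 were higher and 0 of 79 lower. Of all tested genes 0.883% were higher and 0.0747% lower, and the smallest adjusted p of a ribosomal protein gene was 0.222. At an unadjusted p under 0.05 there was 1 gene, Rps9, against 21.3% of all tested genes. DESeq2 called 0 of 79, with 2 at an unadjusted p under 0.05, where it called 7.76% of all genes and had 23.6% at that p. Limma-voom with quality weights called 1, Rpl21, where it called 19.5% of all genes. In 77 of the 79 genes the CPM values of the groups overlapped, while 28.4% of all tested genes had groups that did not overlap. The exceptions were Rps9, lower in every poly(I:C) library, and Rpl39l, higher in every one. In simulated counts the same test recovered 8.33% of changes of 1.5-fold in genes drawn at random, so small changes of single genes could go uncalled.

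The direction over the family turned when 1 library was left out. The log2 difference, poly(I:C) minus saline, was below 0 for 59 genes and above 0 for 20, with a median of −0.10 beside 0.01 over all tested genes. For the large subunit the median was −0.09, with 38 genes below and 10 above 0, and for the small subunit −0.11, with 21 below and 10 above. The median standard error of a single gene was 0.16. Between libraries of a group, the median deviation of the family had a pooled SD of 0.20, larger than these medians. Under RLE, upper-quartile and total-count scaling the median over the family was −0.11, −0.04 and −0.02, while that over all tested genes was −0.01, 0.06 and 0.08. Without saline replicate 1 the family median was 0.06, beside 0.03 over all tested genes, and 56 genes were above 0 and 23 below. The neutrophil sums of that library are given above.

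**Figure D3:**
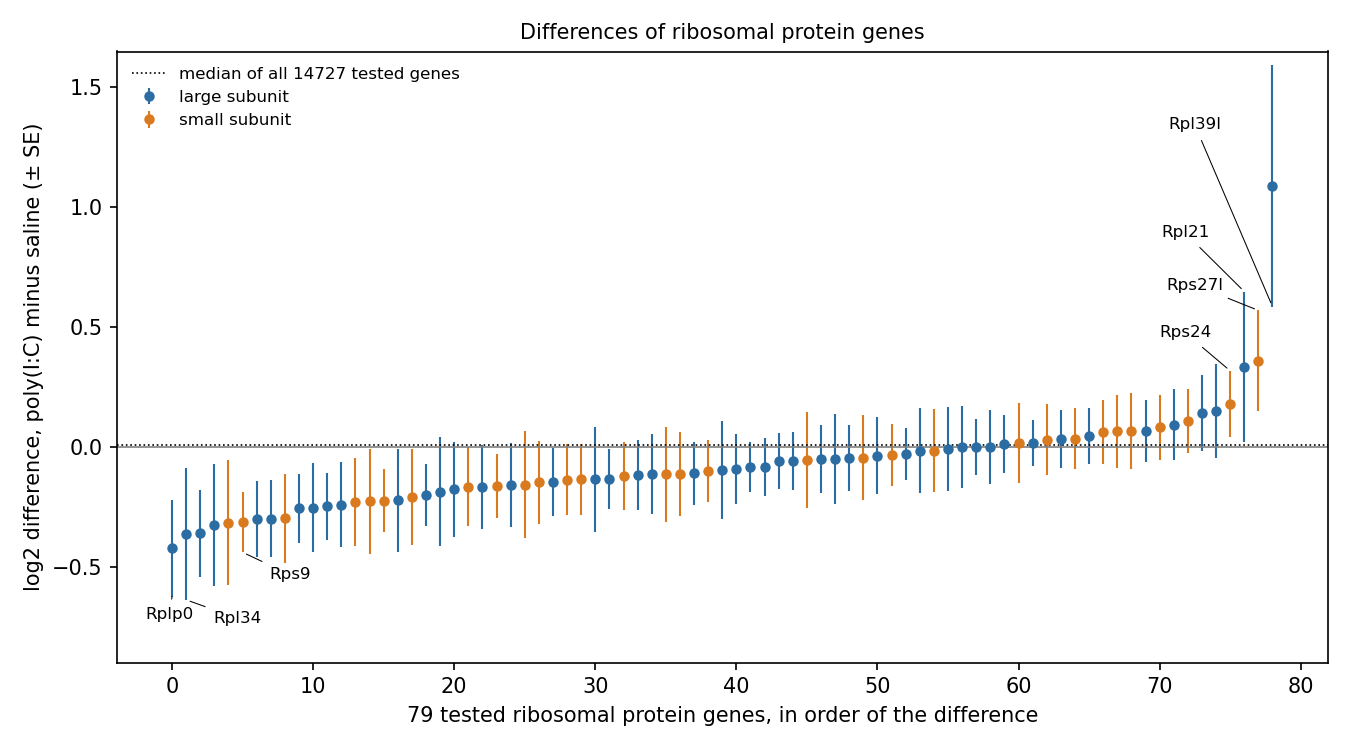
The 79 tested genes in order of their log2 difference, poly(I:C) minus saline, with bars of 1 SE and the median of all 14727 tested genes as a dotted line. Most values lie within 0.4 of 0, from −0.42 for Rplp0 to 0.36 for Rps27l, with Rpl39l alone above at 1.09.

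Among large subunit proteins, the stalk that recruits and activates elongation factors is built from Rplp0, Rplp1 and Rplp2. Rplp0 had 602, 351 and 390.0 CPM in saline replicates 1 to 3 and 352, 326 and 323 CPM in the poly(I:C) libraries. Saline replicate 1 was far above the other 5 libraries, and the groups overlapped at the level of saline replicate 2. The log2 difference was −0.42 (SE 0.20, adjusted p = 0.267), and without saline replicate 1 it was −0.16. Rplp1 had 459, 355 and 346 CPM with saline and 307, 404 and 262 CPM with poly(I:C), and Rplp2 had 137, 117 and 105 CPM and 100.5, 118 and 94.0 CPM. In both genes poly(I:C) replicate 2 was the highest of its group and lay within the saline values. Their log2 differences were −0.25 (SE 0.19) and −0.20 (SE 0.13), and −0.11 and −0.096 without saline replicate 1.

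Rpl5 and Rpl11 form, with a small ribosomal RNA, a particle of the large subunit that also binds the p53 inhibitor MDM2 when ribosome assembly is disturbed. Rpl5 was at 375, 287 and 306 CPM with saline and at 297, 325 and 307 CPM with poly(I:C), and Rpl11 at 217, 180.4 and 170 CPM and at 178, 212 and 182 CPM. Both had overlapping groups and log2 differences near 0, at −0.06 (SE 0.12) and 0.01 (SE 0.12). Rpl10, a late-joining protein of the large subunit, was at −0.13 (SE 0.12), and Rpl38, known from patterning defects of the mouse skeleton, at −0.18 (SE 0.20). The 8 large subunit proteins listed around the exit of the peptide tunnel had a median of −0.10, with 5 below 0, 3 above 0 and 0 called.

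Rpl13 and Rpl18 were among the 5 large subunit genes with the smallest p-values. Rpl13 had 304, 213 and 228 CPM with saline and 184, 231 and 189.5 CPM with poly(I:C). Rpl18 had 271, 209 and 200.3 CPM with saline and 163, 219 and 172 CPM with poly(I:C). In both genes poly(I:C) replicates 1 and 3 lay below every saline library, and poly(I:C) replicate 2 lay among them. The log2 differences were −0.30 (SE 0.16) for each, with an adjusted p of 0.304 and 0.308 in edgeR, and without saline replicate 1 they were −0.13 and −0.15. Rpl13a, a protein that can leave the ribosome after interferon gamma and silence inflammatory messenger RNAs in human monocytes, had 540.3, 409 and 419 CPM with saline and 346, 432 and 367 CPM with poly(I:C). Its log2 difference was −0.26 (SE 0.14, adjusted p = 0.321), and −0.12 without saline replicate 1.

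Rpl21 was the gene whose reading changed most with 1 library. It had 68.9, 32.9 and 29.4 CPM in saline replicates 1 to 3 and 58.6, 52.6 and 54.4 CPM with poly(I:C). Saline replicate 1 lay above all poly(I:C) libraries and the other saline libraries lay below them. With all libraries the log2 difference was 0.34 (SE 0.31, adjusted p = 0.538). Without saline replicate 1 it was 0.81 (SE 0.11, adjusted p = 0.0224 in edgeR), the only ribosomal protein gene called in that fit, where 1.21% of all tested genes were called. With both first replicates left out it was 0.80 (adjusted p = 0.00914), again alone, with 3.85% of all genes called. All of the coding 50-mers of Rpl21 occur in other annotated genes, among them 81 pseudogenes, so its reads may be split between copies.

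Of the small subunit, Rps9, which binds ribosomal RNA early in assembly, was at 501, 405 and 402 CPM with saline and at 322, 390.3 and 339 CPM with poly(I:C). Every poly(I:C) library lay below every saline library, with poly(I:C) replicate 2 only just below. Its log2 difference of −0.31 (SE 0.13) had an unadjusted p of 0.0410 and an adjusted p of 0.222 in edgeR. It was −0.21 without saline replicate 1 and −0.12 with both first replicates left out. Over the alternatives of processing and of libraries left out, the adjusted p was between 0.0542, in limma-voom with quality weights, and 0.545. Rps3, a protein at the entry of the messenger RNA channel, was at 559, 440 and 444 CPM with saline and 385, 462 and 388 CPM with poly(I:C), or −0.22 in log2 (SE 0.13) and −0.11 without saline replicate 1.

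Rps24, one of the genes mutated in Diamond-Blackfan anaemia, had the largest positive difference of small subunit genes after Rps27l. It was at 262, 186 and 193 CPM with saline and at 243, 247 and 235 CPM with poly(I:C). The poly(I:C) libraries lay close together, between saline replicate 1 and the other saline libraries. The difference was 0.18 in log2 (SE 0.14, adjusted p = 0.461). Leaving out saline replicate 1 gave 0.34, leaving out saline replicate 2 or 3 gave 0.085 and 0.11, and it was 0.014 with the offsets for GC content. Rps6, the substrate of the S6 kinases downstream of mTOR, showed the same order, with 287, 218 and 213 CPM and 266, 249 and 235 CPM (0.06, SE 0.13). Rps27a, which is made as a fusion with ubiquitin, was at 0.11 (SE 0.13), Rps19 at 0.02 (SE 0.17) and Rps4x at −0.04 (SE 0.13). Rpsa, also known as the laminin receptor, had 543, 325 and 343 CPM with saline and 383, 375 and 362 CPM with poly(I:C), so that its saline SD of 121 CPM came from saline replicate 1. The 15 genes of the Diamond-Blackfan list, from both subunits, had a median of −0.06 and 0 called.

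The paralogs Rpl39l, Rps27l and Rpl3l were expressed at low levels. Rpl39l and Rps27l were not called, and Rpl3l was not tested. Rpl39l, a paralog of Rpl39 known from the testis, had 10, 6 and 10 counts with saline and 17, 26 and 14 with poly(I:C). Every poly(I:C) library was above every saline library, and the log2 difference was 1.09 (SE 0.50, adjusted p = 0.259). At these counts the levels were 0.17 to 0.30 CPM with saline and 0.40 to 0.77 CPM with poly(I:C), where 3 counts correspond to between 0.0860 and 0.0890 CPM of the library total. Rpl39 itself had 102, 68.9 and 67.4 CPM and 84.3, 105 and 74.7 CPM (0.15, SE 0.20).

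Rps27l, a paralog of Rps27 that is a p53 target, had 18.1, 13.5 and 13.3 CPM with saline and 23.9, 18.4 and 15.2 CPM with poly(I:C). Poly(I:C) replicates 1 and 2 lay above every saline library and poly(I:C) replicate 3 did not, and the log2 difference was 0.36 (SE 0.21, adjusted p = 0.337), and 0.19 without poly(I:C) replicate 1. Rps27 was at 105, 91.2 and 77.0 CPM and 69.0, 102 and 64.3 CPM, a log2 difference of −0.21 (SE 0.20). Rpl3l, the striated muscle form of Rpl3, had 3, 1 and 6 counts with saline and 7, 2 and 2 with poly(I:C), and Rpl3 was at −0.03 (SE 0.11). Rpl22l1, a paralog outside the symbol rule, had 22.9, 16.9 and 16.5 CPM with saline and 35.3, 23.8 and 26.1 CPM with poly(I:C). Its groups did not overlap and its log2 difference was 0.60 (SE 0.20, adjusted p = 0.186), beside 0.03 (SE 0.12) for Rpl22. Rpl32l and Rpl6l are annotated as processed pseudogenes in GENCODE M21, so they may not be functional ribosomal protein genes, and Rpl6l was at 13.7, 11.1 and 11.3 CPM with saline and 13.04, 11.97 and 11.04 CPM with poly(I:C).

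The differences ran with base composition. GC content was taken from 1 coding sequence per gene in GENCODE M21, which gave a value for 78 of the 79 tested genes and for 88.0% of all tested genes. Across the 78 genes the log2 difference and coding GC had a Spearman correlation of −0.64 and a Pearson correlation of −0.64. Genes share libraries and are not independent replicates, so this is a description. The 26 genes with the lowest GC (42.3% to 50.3%) had a median of 0.03, with 14 above and 12 below 0. In the middle 26 the median was −0.08, with 3 above and 23 below. The 26 with the highest GC (54.4% to 61.3%) had a median of −0.23, with 3 above and 23 below.

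The median deviation from the 6-library mean was also taken by GC in each library. As the deviations are centred on that mean, opposite signs in the groups are in part fixed by the centring. In poly(I:C) replicates 1 and 3 the median deviation of the genes with the highest GC was −0.20 and −0.21, and that of the genes with the lowest GC 0.01 and −0.07. In saline replicates 2 and 3 the order was the other way, with −0.03 and −0.08 for the highest and −0.17 and −0.17 for the lowest GC, and in saline replicate 1 the values were 0.40 and 0.26. Poly(I:C) replicate 2 differed little by GC, at 0.11 and 0.14. Leaving out each library in turn gave correlations between −0.66 and −0.57. Over the 12953 tested genes with a coding sequence the Spearman correlation of the log2 difference with coding GC was −0.35, so the relation was not limited to ribosomal protein genes. With offsets that remove the trend of CPM on GC in each library, the median of the family was −0.12, beside −0.05 over all tested genes, and 0 of 79 were called. No value here tells library preparation from other sources of a GC trend, and its part in the differences of single genes was not tested further.

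**Figure D4:**
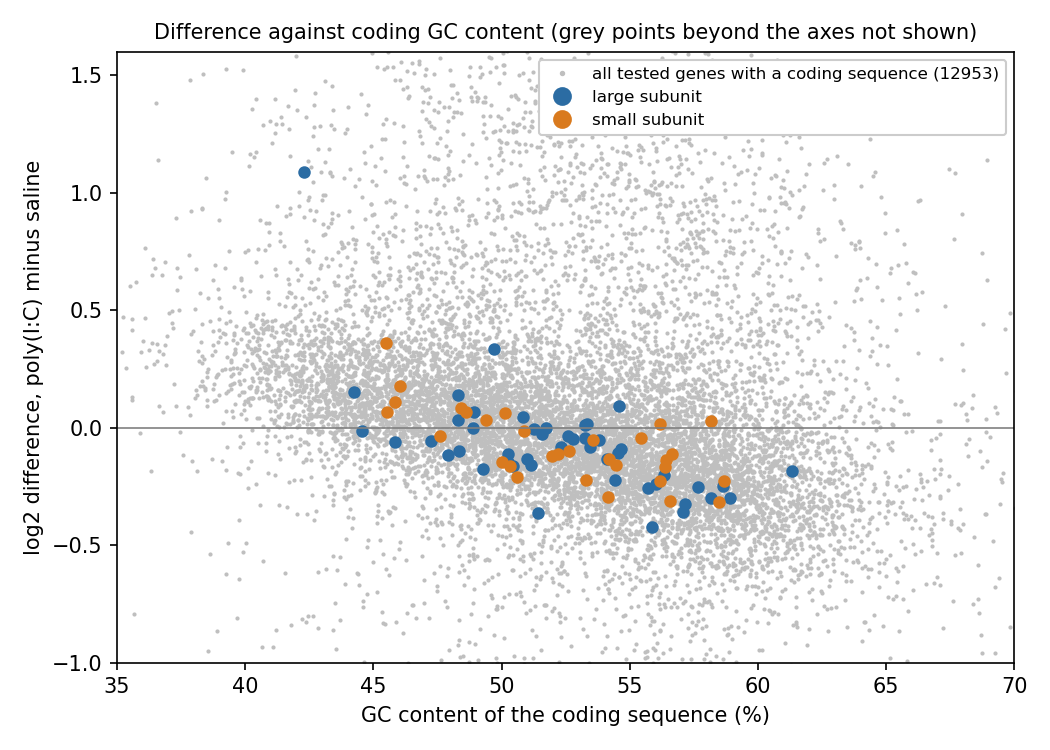
The log2 difference, poly(I:C) minus saline, against the GC content of the coding sequence (%). Coloured points are the 78 tested ribosomal protein genes with a coding sequence, by subunit. Rpl6l, a large subunit symbol, has none. Grey points are all 12953 tested genes with a coding sequence (points beyond the axes are not shown). The values of ribosomal protein genes decline from low to high GC, with a Spearman correlation of −0.64.

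Length of the coding sequence separated poly(I:C) replicate 2 from the other poly(I:C) libraries. The log2 CPM of that library minus the mean of poly(I:C) replicates 1 and 3 was above 0 for 70 of the 79 genes, with a median of 0.21 (1.16-fold), against a median of −0.04 over all tested genes. It was largest for Rpl34, at 0.94, and Rps29, at 0.86. Rps29, with a coding sequence of 171 bases, had 327, 274 and 229 CPM with saline and 176, 317 and 174 CPM with poly(I:C). Rpl34, of 354 bases, had 65.6, 51.4 and 53.6 CPM with saline and 37.2, 64.8 and 30.6 CPM with poly(I:C). In both genes poly(I:C) replicates 1 and 3 were low and poly(I:C) replicate 2 stood among the saline libraries. Rpl4, the longest with 1260 bases, differed by 0.00. Across 78 genes the Spearman correlation of this difference with coding length was −0.55. It was −0.12 for the log2 difference between the groups, 0.072 without poly(I:C) replicate 2, and between −0.29 and −0.033 with another library left out. Without poly(I:C) replicate 2 the family median was −0.16, with 0 called and 10 of 79 genes at an unadjusted p under 0.05. In that fit 0.849% of all tested genes were called and 27% were at that p. The lowest p of the family belonged to Rpl34 (adjusted p = 0.0805 in edgeR).

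**Figure D5:**
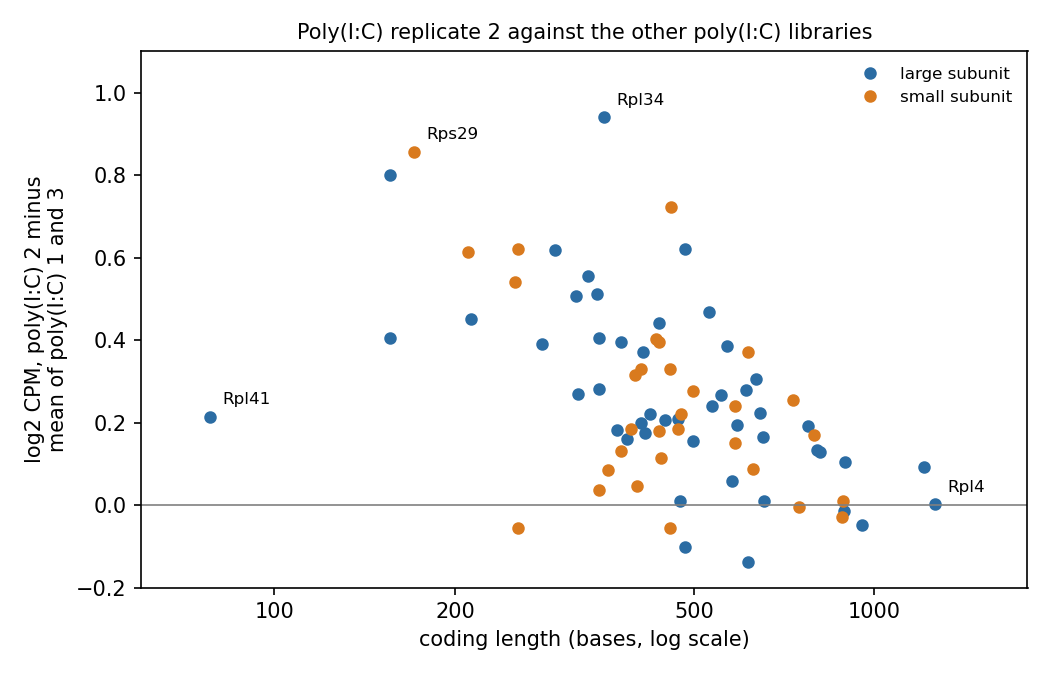
The log2 CPM of poly(I:C) replicate 2 minus the mean of poly(I:C) replicates 1 and 3, against coding length (bases, log scale). Points are the 78 tested genes with a coding sequence, by subunit, without Rpl6l of the large subunit. Short coding sequences such as Rps29 (171 bases, 0.86) lie high and long ones such as Rpl4 (1260 bases, 0.00) near 0, while Rpl41 (78 bases) lies at 0.21.

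Levels per length were compared on the scale of mean CPM over the 6 libraries per kilobase of coding sequence, for the 79 genes with an annotated coding sequence. The median level was 336 for the 48 large and 338 for the 31 small subunit genes, with the middle 50% of all genes between 238 and 434. The highest levels were those of Rpl41 (2785), Rps29 (1460) and Rplp1 (1030), and UTRs are not counted, which raises the level of the shortest sequences most. The lowest were Rpl3l (0.0834), Rpl39l (2.59), Rpl29 (11.5), Rps2 (31.7) and Rps18 (32.6). Without counting length, Rpl4 (477 CPM), Rps4x, Rps3, Rpl13a and Rps9 were the most abundant messengers, between 393 and 477 CPM, and the 5 lowest were Rpl32l, Rpl3l, Rpl39l, Rpl29 and Rpl6l.

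Near-identical copies limit these levels. Of the coding 50-mers of a gene, a median of 91.6% also occur in another gene of GENCODE M21, and in 44 of the 79 genes more than 90% do. Rpl7a shares 50-mers with 121 annotated pseudogenes, Rpl29 with 81 and Rps2 with 71, while 3 genes, among them Rpl3l and Rpl39l, share none. Across genes the level per kilobase and the shared percentage had a Spearman correlation of −0.02. The table itself holds 11 rows with ribosomal pseudogene symbols, with 7386 counts in all, or 0.255% of the counts of ribosomal protein genes, and 6623 of them belong to Rpl34-ps1. How reads that match several copies were counted is not given in the sources used here, so levels of single genes are uncertain.

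No gene was called among ribosomal proteins outside the symbol rule, other genes with a TOP element and initiation factors. Of the 8 tested ribosomal proteins outside the symbol rule, which include Fau, Rack1 and Rps3a1, 0 were called and the median was −0.13. Of 17 translation factors and other genes with a TOP element 0 were called (median −0.03). Hnrnpa1, an RNA-binding protein, was at 0.35 (SE 0.08, adjusted p = 0.127), and Eif3f, a subunit of initiation factor complexes, at −0.41 (SE 0.10, adjusted p = 0.131). Of 34 initiation factors 0 were called, with a median of −0.08. In edgeR 12 were at an unadjusted p under 0.05, beside 21.3% of all tested genes. In 12 of them every poly(I:C) library lay below every saline library, and in 6 every one lay above. Of all tested genes 14.3% and 14.0% do so. Eif3k was at −0.34 (SE 0.09).

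Ribosome biogenesis genes gave no call. Of 58 tested genes for RNA polymerase I, processing of ribosomal RNA and assembly, 36 were above 0 and 22 below, with a median of 0.10 (median SE of a gene 0.12) and 0 called. In 18 of them every poly(I:C) library lay above every saline library, and in 5 every one lay below, beside 14.0% and 14.3% of all tested genes. Taf1d, a factor for RNA polymerase I, had 40.3, 35.9 and 37.4 CPM with saline and 54.5, 50.6 and 54.5 CPM with poly(I:C), which is 0.49 in log2 (SE 0.09, adjusted p = 0.0685). The coding GC of Taf1d is 40.04% and that of Nop58, given next, 40.45%, and the part of the GC trend in their values was not tested. Nop58, a core protein of small nucleolar RNA particles, had 34.0, 29.7 and 29.5 CPM and 47.2, 40.4 and 42.5 CPM (0.48, SE 0.11, adjusted p = 0.117). In both genes every poly(I:C) library lay above every saline library, and saline replicate 1 was the highest of its group.

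Of 10 genes for ribosome rescue and recycling 0 were called (median 0.06), with Ascc3 at 0.67 (SE 0.19) and Abce1 at 0.35 (SE 0.11). Of 13 genes of the mTOR pathway 1 was called, Ddit4, an inhibitor of mTOR, which fell by 1.92 on the log2 scale (SE 0.24, adjusted p = 0.0183 in edgeR). Larp1, the binding protein of TOP messengers, was at 197, 190 and 202 CPM with saline and 210, 218 and 209 CPM with poly(I:C), or 0.11 in log2 (SE 0.07), and was chosen outside the naming rule after its values were seen. The 78 genes for proteins of the mitochondrial ribosome, which translates in the mitochondrion and is encoded by a separate set of genes, had 39 values above and 39 below 0, with 0 called. Their share of counts was between 0.130% and 0.142% in all 6 libraries, with 0.137% in saline replicate 1, so that library was not the highest there.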

How the data were processed

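RNA from CD11b-enriched cerebellar cells was amplified as full-length cDNA and made into Nextera XT libraries, per the labels' protocols. The authors deposited raw read counts per gene symbol, neither normalised nor pooled, and fastp, HISAT2, HTSeq and build GRCm39 are named without versions in the submitters' processing notes. The sources used here do not give the strand setting, the annotation or the treatment of reads with several matches. PCR without molecular identifiers means that counts are of reads. The table has 0 rows with mt- symbols.

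Genes were kept by filterByExpr, libraries scaled by TMM, and poly(I:C) was compared with saline by edgeR 4.0.16 (glmQLFit and glmQLFTest) in R 4.3.3 over all 14727 kept genes, with Benjamini-Hochberg adjustment and a threshold of 0.05. Each standard error was taken as the size of the log2 difference over the root of its F statistic. Alternatives were other scalings and filters, DESeq2 1.42.0, limma 3.58.1, a replicate block and libraries left out. GC and length offsets (loess, span 0.5, on log2 of CPM plus 0.5) and the ratio with added proteins were chosen after seeing the data. Coding sequences came from GENCODE M21 (GRCm38), matched by symbol and without coordinates. The script was tested on simulated counts with the spread between libraries fitted to these data. It recovered 8.33% of changes of 1.5-fold, 58% of 2-fold, 86% of 4-fold and 98% of 8-fold.

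Members and gene lists were chosen with earlier results of these data known. Members named are those with the smallest p (5 for each subunit), the 5 highest and 5 lowest levels, the 3 largest differences in each direction, and a list of roles and paralogs. Some genes under this rule are not reported here. Rps29, Rpl41, Rps2, Rps18, Rpl7a, Rpl22l1 and Larp1 were chosen after their values were seen. Replicates differed by more than counting noise (chi-square per ribosomal protein gene between 11.1 and 58.5).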

Additional observations from a re-analysis of the deposited data

How the results depend on the processing

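No ribosomal protein gene was called lower under any alternative run. Leaving out each library in turn gave 0 or 1 called higher, and the 1 was Rpl21 without saline replicate 1. It was also the 1 called by limma-voom with quality weights and with both first replicates left out. The family median lay between −0.18 and 0.06 with 1 library left out, the latter without saline replicate 1, and was 0.13 (large subunit 0.12, small subunit 0.14) with both first replicates left out. Over all tested genes the median was 0.03 without saline replicate 1 and 0.02 with both first replicates left out. The ratio of large to small subunit differed by −0.0248, by −0.0293 to −0.0171 with 1 library left out, by −0.0504 without the 5 most abundant genes, by −0.00421 as a ratio of medians and by −0.0111 with proteins outside the symbol rule. The share of counts differed by −0.123 to 0.0869 percentage points with 1 library left out.

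Log2 differences near 0 changed sign. Total-count and upper-quartile scaling moved the median of all tested genes from 0.0098 to 0.085 and 0.059, so the signs under them follow that shift. RLE scaling moved it to −0.011 and GC offsets to −0.049. The cause of the other sign changes was not tested. With both first replicates left out, Rpl4 was 0.038, Rps4x 0.14, Rpl6l 0.065, Rpsa 0.17, Rpl38 0.14, Rpl10 0.057, Rpl5 0.11, Rpl3 0.11 and Rps27 0.013. Under total-count scaling Rps4x was 0.041, Rpl6l 0.077, Rpl5 0.016 and Rpl3 0.048, and under upper-quartile scaling Rps4x 0.020, Rpl6l 0.053 and Rpl3 0.025. With a minimum of 5 CPM in 3 libraries Rpl6l was 0.036 and Rpl3 0.00663. With GC offsets Rps6 was −0.030, Rps27a −0.055, Rpl22 −0.090 and Rpl39 −0.029. With RLE scaling and with DESeq2 Rps19 was −0.00373 and Rpl11 −0.00667, and limma-voom gave Rpsa 0.025 and Rpl5 0.00208. With 1 library left out, Rpl4 ranged from −0.24 to 0.019, Rps4x from −0.12 to 0.092, Rpl6l from −0.056 to 0.094, Rps6 from −0.018 to 0.21, Rpsa from −0.25 to 0.15, Rpl38 from −0.35 to 0.00184, Rpl22 from −0.043 to 0.15, Rps19 from −0.088 to 0.22, Rpl5 from −0.14 to 0.055, Rpl11 from −0.076 to 0.12, Rpl3 from −0.096 to 0.075 and Rpl39 from −0.000611 to 0.36.

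The replicate block called 0 of 79, with a family median of −0.08 and Rpl6l at 0.00281. Correlations of same-numbered libraries were 0.15, −0.09 and 0.25, so the numbers were not taken as pairs, and of the poly(I:C) libraries only replicate 3 correlated best with its own number. Over all genes the block called 171 higher and 89 lower, beside 130 and 11 without it. DESeq2 called 577 and 566, and limma-voom 1268 and 1608. With 1 library left out the calls were 167 and 16 without saline replicate 1, 66 and 2 without saline replicate 2, 53 and 0 without saline replicate 3, and 51 and 0 without poly(I:C) replicate 3. With both first replicates left out they were 355 and 214. A share outside mt- genes was not run, as the table has 0 such rows. Rpl39l, Rpl3l and Rpl32l are limited by counts.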
